A study of Mus musculus with 2 samples.

Results

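The 6 heat shock chaperone genes Hspa1a, Hspa1b, Dnajb1, Hsp90aa1, Hspa8 and Dnajb2 were taken by name from the 21888 genes listed for taste cells of 2 kinds of tongue papilla, and all 6 were listed in both tables. Both groups were sorted GFP-positive cells of adult α-gustducin-GFP mice on a C57BL/6J background, 1 library of fungiform papillae (FP), which sit on the anterior tongue, and 1 of the circumvallate papilla (CV), which sits on the posterior tongue, and the labels name no further treatment. In both, the epithelium was loosened with dispase II and dissociated with elastase and TrypLE at 37 °C before sorting with exclusion of 7-AAD, a dye that enters dead cells. Gnat3 encodes α-gustducin, the G protein subunit of taste transduction whose reporter selects part of the taste cells. The members were described in the 53 of 90 cell barcodes that had more than 500 detected genes and Gnat3 above 0.9 on ln(1 + 10000 × Gnat3 counts / total counts): 21 of 29 FP barcodes and 32 of 61 CV barcodes. How many animals gave each library is not given in the sources used here. With 1 library per papilla, no difference below has a replicate check and no test between papillae was made.

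Hsp70 chaperones bind exposed hydrophobic stretches of unfolded proteins in a cycle driven by ATP, Hsp40 (J-domain) proteins deliver substrates and stimulate that ATPase, and Hsp90 acts later on folding clients such as kinases and receptors. Cells keep a constitutive set of these proteins at all times, and heat or other protein-damaging stress makes the transcription factor HSF1 bind heat shock elements and drive an inducible set. Enzymatic tissue dissociation at body temperature is a known trigger of the inducible set and of the immediate early genes, so both are often read together in single-cell data. Of the members, Hspa1a and Hspa1b encode the inducible Hsp70, Dnajb1 encodes its inducible Hsp40 partner, Hspa8 encodes the constitutive Hsc70, and Dnajb2 encodes a constitutively made Hsp40. Hsp90aa1 encodes Hsp90α, which is made at rest and is also raised by stress, so it was kept apart from the inducible group (Hspa1a, Hspa1b and Dnajb1) and the constitutive group (Hspa8 and Dnajb2).

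The inducible Hsp70 genes lie beside each other and are near-identical copies, which bears on how their counts can be read. In mm10 with the GENCODE M21 annotation, Hspa1a spans chromosome 17, 34969190 to 34972156, and Hspa1b spans chromosome 17, 34956436 to 34959238, both on the minus strand. Both are genes without introns. The 120 bases just upstream of each annotated start are shown from RefSeq (GRCm38.p6), 5′ to 3′ on the gene's strand, because they hold the same heat shock element half-site pair; capitals mark the match to GAANNTTC, which begins at position -104 from the start. The Hspa1a stretch is chr17:34972157-34972276 and the Hspa1b stretch is chr17:34959239-34959358, both on the minus strand.
Hspa1a: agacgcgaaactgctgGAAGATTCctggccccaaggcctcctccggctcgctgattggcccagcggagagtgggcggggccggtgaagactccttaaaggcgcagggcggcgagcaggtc
Hspa1b: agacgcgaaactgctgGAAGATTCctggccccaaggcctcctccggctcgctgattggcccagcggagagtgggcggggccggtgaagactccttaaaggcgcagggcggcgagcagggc
The printed stretches differ at 1 of 120 bases, and the whole RefSeq windows of 300 bases differ at 4. Coding sequences of 1926 and 1929 bases were 99.4% identical, whereas the 3′ untranslated regions of 810 and 643 bases were 46.9% identical in a global alignment. Reads from the coding part can therefore be placed on either gene, and the sources used here do not give how the authors' counting split them. The separate values of Hspa1a and Hspa1b are therefore uncertain. GAANNTTC and TTCNNGAA, each its own reverse complement so that both strands are covered, were searched in the 250 bases upstream of the start. GAANNTTC was present in 6.69% of 32851 RefSeq windows, TTCNNGAA in 7.17%, and either in 12.8%. The 2 windows each of Dnajb1 and Dnajb2 held neither string of letters, and no window was searched for Hsp90aa1 or Hspa8. These matches describe letters in a window and not factor binding.

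The kept cells held 22646953 counts in FP and 29535917 in CV. A kept cell had 193718 to 3190340 counts (median 1141644) in FP and 32726 to 3447628 (median 543963) in CV, and 13 FP and 14 CV cells had at least 1000000. The libraries shared 0 barcodes, and 5 kept CV barcodes had numbers within 10 of another. As a check of the labelled cell type, 7 of 8 type II taste cell genes were listed and none of the 7 differed 2-fold. They summed to 21013 CPM (counts per 1000000 counts) in FP and 17974 in CV. Gnat3 is among the 7 and also selected the cells, so its part of this check was fixed in advance. Per cell the sum ran from 4887 to 27186 CPM in FP and from 263 to 35988 CPM in CV. Lingual keratinocyte genes summed to 155 CPM in FP, where all 11 were detected (90.9 to 534 per cell), and to 4.81 CPM in CV (0 to 917 per cell), where 5 of 11 were at 0, Krt14 and Krt16 among them. The part of these depth and keratinocyte differences in the results below was not tested. Levels are CPM pooled over the kept cells of a library, with exact Poisson 95% intervals, ratios carry exact conditional binomial 95% intervals, and shares of cells carry exact Clopper-Pearson 95% intervals. All of them cover counting error at most, taking each count, or each cell for the shares, as independent. Counts may include PCR copies and gather in single cells, so the intervals of levels and ratios may be too narrow. The spread between mice is unknown and is in none of them. A gene was called on in a cell at 50 CPM or more.

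Hspa1a, the main stress-inducible Hsp70, was 8.06 times as high in CV as in FP cells, and it was on in a minority of cells in both, as was the median gene of at least 10 CPM, which was on in 4 cells of each library. The pooled level was 16.6 CPM (15.0 to 18.4) among FP cells and 134 CPM (130 to 138) among CV cells, a ratio of 8.06 (7.25 to 8.98). In FP it was on in 1 of 21 cells (4.76%, interval 0.12 to 23.8%), at 347 CPM, and that cell held 363 of the 376 FP counts. In CV it was on in 9 of 32 cells (28.1%, 13.7 to 46.7%), at 731, 513, 292, 217, 217, 200, 138, 120 and 101 CPM. The intervals of the shares overlap. All other kept cells were far below: the highest was 5.16 CPM in FP against 15.9 CPM in CV, with medians over all kept cells of 0 and 1.58 CPM. The gene thus had a gap between 15.9 and 101 CPM with no cell in it. The single CV cell with the most Hspa1a counts gave 1768 of 3952, or 44.7%, close to the median top-cell share of 37.2% among the 9401 CV genes of at least 10 CPM. Without the top-count cell of each library the levels were 0.602 CPM in FP against 83.7 CPM in CV. One CV cell called on had 27 Hspa1a counts of 124464 and 70.6% mitochondrial counts.

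Hspa1b, the neighbouring copy, was at 0.662 CPM (0.371 to 1.09; 15 counts) among FP cells and 30.6 CPM (28.7 to 32.7; 905 counts) among CV cells, a CV over FP ratio of 46.3 (27.9 to 83.0). It was on in 0 of 21 FP cells, where the interval reaches 16.1%, and in 2 of 32 CV cells, at 165 and 98.0 CPM. The highest other cells were at 11.5 CPM in FP against 23.7 CPM in CV, and the CV cell at 165 CPM held 62.9% of the CV counts. Without the top-count cell of each library the levels were 0.139 and 12.9 CPM. The ratio of the 2 copies was not fixed from cell to cell. In the 9 CV cells with Hspa1a on, Hspa1b counts were 0% to 32.2% of the Hspa1a counts (median 4.05%), and in the FP cell they were 3.31%. One further CV cell went the other way, with 204 Hspa1b counts and 2 Hspa1a counts. Over the 32 CV cells the Spearman correlation of the copies' CPM was 0.65, and 0.57 over the 14 cells with at least 1000000 counts; these cells share a library and differ in depth.

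Dnajb1, the inducible Hsp40 that hands substrates to Hsp70, had the opposite order. It was at 61.3 CPM (58.1 to 64.6) among FP cells and 26.6 CPM (24.8 to 28.5) among CV cells, an FP over CV ratio of 2.3 (2.11 to 2.52). It was on in 5 of the 21 FP cells (23.8%, 8.22 to 47.2%), at 291, 289, 195, 146 and 137 CPM, and in 2 of the 32 CV cells (6.25%, 0.766 to 20.8%), at 152 and 122 CPM. All other cells were at or under 4.73 CPM in FP against 11.4 CPM in CV, so that this gene too was either above 100 CPM or nearly silent, and the intervals of the shares overlap. The CV level rested on few cells: 1 cell gave 53.6% of the counts, and with the 10% of cells of highest total count left out of each library the levels were 85.8 CPM in FP against 1.19 CPM in CV. In mm10 the gene lies on chromosome 8, 83608193 to 83612653, on the plus strand.

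**Figure D1:**
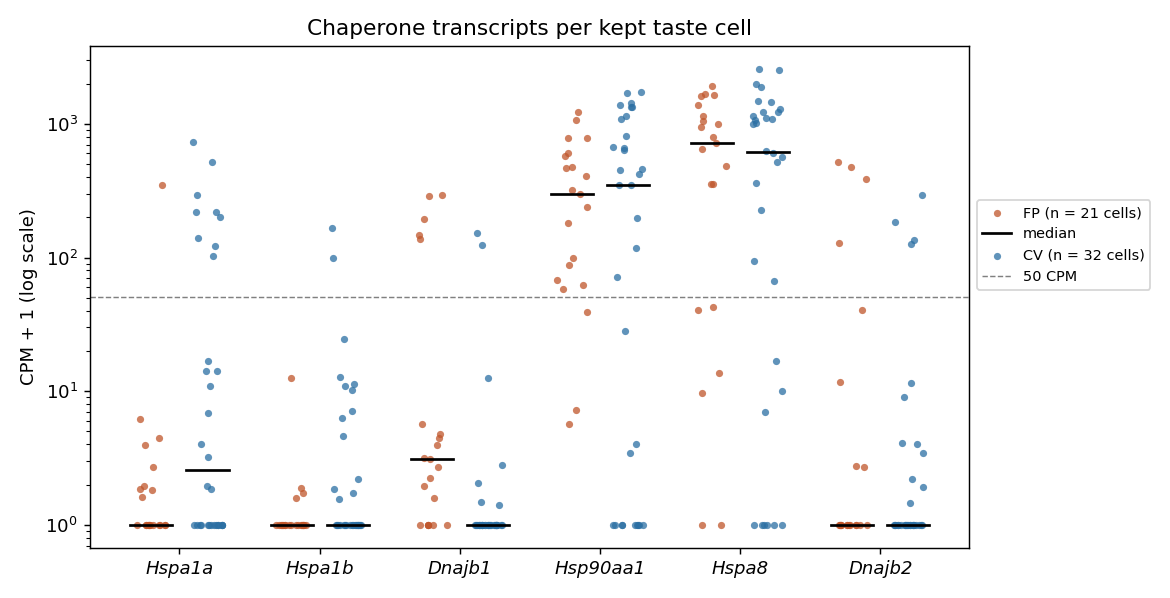
Each point is 1 kept cell (21 FP, 32 CV) and shows the CPM of a member on a log axis after adding 1. Hspa1a, Hspa1b, Dnajb1 and the constitutive Dnajb2 have a few cells at about 100 CPM or more above an empty range. Hsp90aa1 and Hspa8 are on in most cells and reach 1741 and 2583 CPM, with no FP cell between 41.3 and 352 CPM of Hspa8.

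Hspa1a and Dnajb1 were each on in few cells, and 1 cell of 53 had both on. In FP, 1 cell had Hspa1a on alone and 5 had Dnajb1 on alone, with 0 cells having both. In CV, 8 cells had Hspa1a on alone, 1 had Dnajb1 on alone, 1 had both and 22 had neither. The CV cell with both was the cell of highest total count (3447628), which also had Hspa1b on. In the 5 FP cells with Dnajb1 on, Hspa1a was at 0 CPM. The Spearman correlation of the CPM of both genes was -0.60 over 21 FP cells and 0.30 over 32 CV cells, with library and depth shared as above and many cells at 0. The FP value ranks mostly stray counts: 12 cells had 0 Hspa1a counts, and all but the 1 cell with Hspa1a on were at 5.16 CPM or less. These counts rest on few cells, describe those cells and were not tested.

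**Figure D2:**
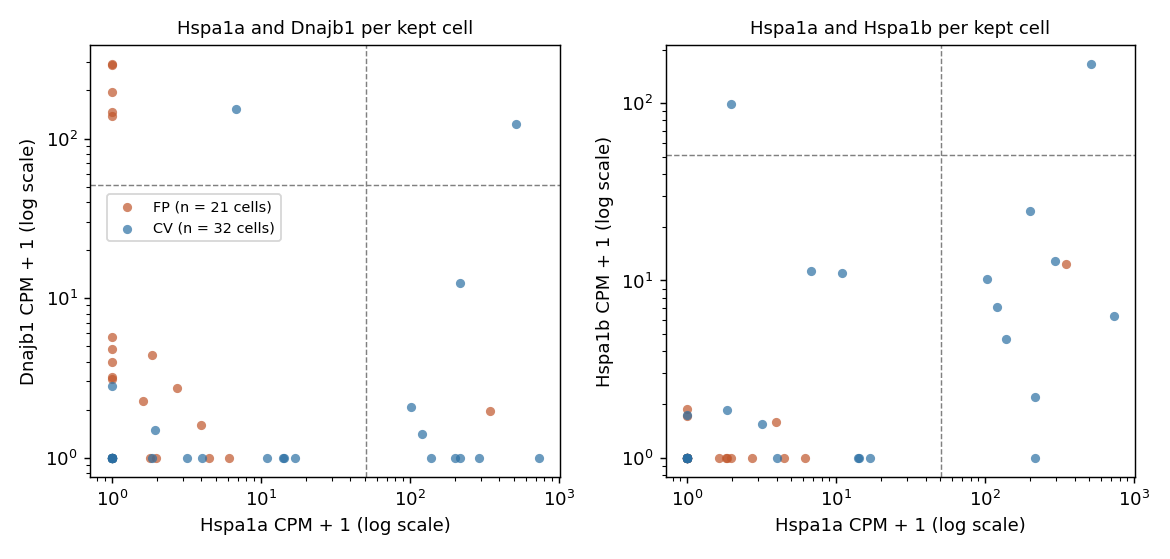
Kept cells by Hspa1a CPM (horizontal) and Dnajb1 or Hspa1b CPM (vertical), both plus 1 on log axes, with dashed lines at the 50 CPM limit. One CV cell lies in the upper right corner of each panel, 5 FP cells with Dnajb1 on sit at 0 CPM of Hspa1a, and Hspa1a cells spread from near 0 to 165 CPM of Hspa1b.

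Hsp90aa1, the stress-responsive Hsp90 gene (chromosome 12, 110690605 to 110702728, minus strand), was broadly present and 1.66 times as high in CV (1.62 to 1.70). It was at 447 CPM (438 to 455) among FP cells and 740 CPM (730 to 749) among CV cells, and on in 18 of 21 and 20 of 32 cells. Per cell it ranged from 4.73 to 1221 CPM (median 298) in FP and from 0 to 1741 CPM (median 345) in CV, and these ranges overlap over most of their length. In cells with at least 1000000 counts it was on in 13 of 13 FP and 14 of 14 CV cells.

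Hspa8, the constitutive Hsc70 (chromosome 9, 40800984 to 40810087, plus strand), was nearly level between the papillae. It was at 906 CPM (893 to 918) among FP cells and 884 CPM (873 to 895) among CV cells, a ratio of 1.02 (1.01 to 1.04). It was on in 15 of the 21 FP cells (71.4%) and in 23 of the 32 CV cells (71.9%), with ranges of 0 to 1905 CPM (median 713) and 0 to 2583 CPM (median 619). Its small difference changed sign with the processing, from -0.25 to 0.24 on the log2 scale over 14 alternatives. Dnajb2 (chromosome 1, 75236406 to 75245692, plus strand) was on in few cells, as many genes were: the median gene of at least 10 CPM was on in 4 cells of each library. Dnajb2 was at 80.4 CPM (76.8 to 84.2) among FP cells and 41.4 CPM (39.2 to 43.8) among CV cells, an FP over CV ratio of 1.94 (1.80 to 2.09), with a median cell of 0 in both. It was on in 4 FP cells, at 520, 478, 388 and 127 CPM, and in 4 CV cells, at 294, 184, 133 and 125 CPM. All 8 of these cells also had Hspa8 and Hsp90aa1 on, and all 8 had at least 1000000 counts. Nearly every kept cell of that depth had both on. Hspa8 was on in 12 of 13 such FP and 14 of 14 such CV cells, and Hsp90aa1 in 13 of 13 and 14 of 14. Dnajb1 was on as well in 2 of the 4 FP cells with Dnajb2 on and in 0 of the 4 CV cells.

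Whether counts in these libraries scale with transcript length was not tested. Per kilobase of the longest coding transcript, the order in FP was Hspa8 (378 CPM per kilobase), Hsp90aa1 (136), Dnajb2 (26.2), Dnajb1 (20.5), Hspa1a (5.60) and Hspa1b (0.236). In CV it was Hspa8 (369 CPM per kilobase), Hsp90aa1 (225), Hspa1a (45.1), Dnajb2 (13.5), Hspa1b (10.9) and Dnajb1 (8.88). Hspa8 and Hsp90aa1 held the top of the order in both libraries, whereas Hspa1a stood above both Hsp40 genes in CV and below them in FP. The order is of pooled levels, and no neighbours in it were tested against each other.

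Between the papillae, 2 of the 6 members, Hspa1a and Hspa1b, were at least 2-fold higher in CV on the log2(CPM + 10) scale, against 21% of the 10918 genes that reached 10 CPM in one library or both. None of the 6 was 2-fold higher in FP, against 17% of those genes, and 38% differed 2-fold in either direction. The log2 FP over CV differences were -2.43 for Hspa1a, -1.93 for Hspa1b, 0.96 for Dnajb1, -0.72 for Hsp90aa1, 0.03 for Hspa8 and 0.81 for Dnajb2, beside a median of -0.05 over all 10918 genes. With so large a share of genes differing between 2 libraries of few cells, a count of 2 in 6 is not a result about the members. Hspa1a was on the CV side in all 14 alternatives and past 2-fold in 12, and Dnajb1 was on the FP side in all 14 and past 2-fold in 9. Dropping the Gnat3 limit narrowed the Hspa1a difference to -0.51, with 71.9 CPM in FP against 107 CPM in CV, and widened that of Dnajb1 to 2.22, with 136 and 21.2 CPM.

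Taken as groups, the inducible members summed to 78.6 CPM in FP against 191 CPM in CV, a CV over FP ratio of 2.43 (2.3 to 2.57), while the constitutive members summed to 986 and 926 CPM, an FP over CV ratio of 1.07 (1.05 to 1.08). The inducible sum reached 50 CPM in 6 of 21 FP and 11 of 32 CV cells, and the constitutive sum did so in 15 of 21 and 23 of 32. Inducible counts were 7.97% of constitutive counts in FP and 20.6% in CV. On the log2 scale this balance was -3.49 in FP and -2.22 in CV for pooled cells. Cell by cell it ran from -6.92 to 0.56 (median -2.88) in FP and from -8.02 to 4.85 (median -2.68) in CV, so the cell ranges overlap almost wholly. Inducible exceeded constitutive counts in 2 cells of each library, and in both FP cells this was 1 inducible count against 0 constitutive counts. The direction of the inducible group depended on how cells were combined: its log2 FP over CV was -1.18 pooled, 0.10 by the median cell, 0.08 without the 10% of cells of highest total count, and 0.45 without the Gnat3 limit. Without the cell with the most inducible counts in each library, which in CV was the cell of highest total count, it was -0.67, with 65.7 CPM in FP against 111 CPM in CV.

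**Figure D3:**
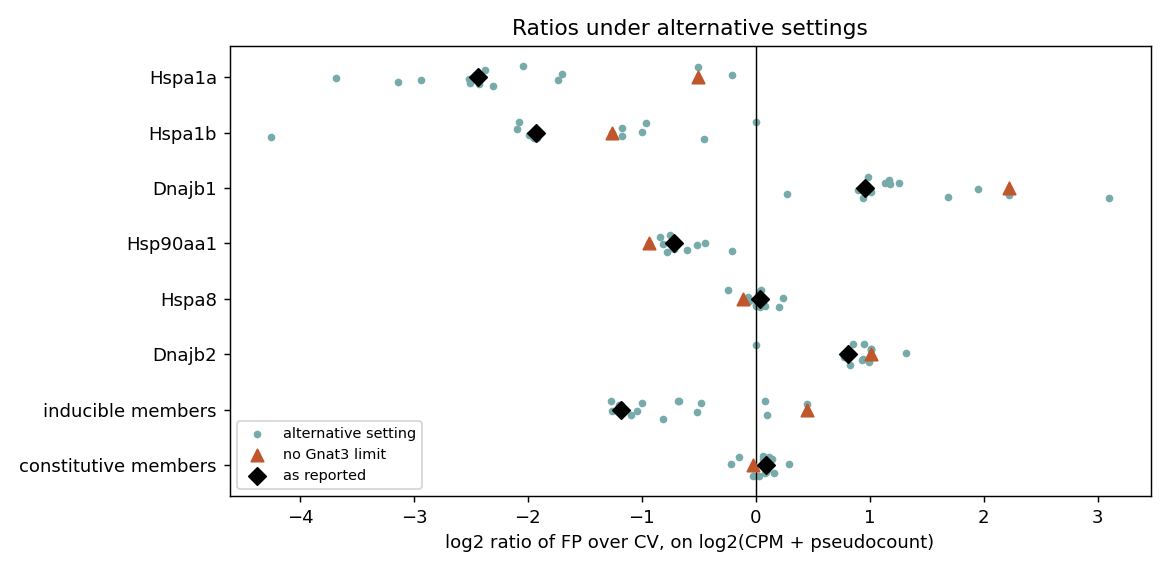
The log2 FP over CV difference of each member and group. Black diamonds are the values reported on the log2(CPM + 10) scale, small points each alternative and triangles the setting without the Gnat3 limit. The alternative with a pseudocount of 1 is on log2(CPM + 1), and that per kilobase, drawn for the groups only, uses CPM per kilobase. Hspa1a stays below 0 and Dnajb1 above 0 throughout, Hspa8 lies on both sides, and the inducible sum runs from -1.27 to 0.45.

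In CV, the inducible genes were mostly on in the deeper cells, as was the constitutive Dnajb2, and in FP this was less clear. Over the 32 CV cells the Spearman correlation with the total count of a cell was 0.62 for Hspa1a, 0.77 for Hspa1b and 0.62 for Dnajb1. It was 0.67 for Hsp90aa1, 0.32 for Hspa8 and 0.51 for Dnajb2. Over the 21 FP cells it was -0.17 for Hspa1a, 0.23 for Hspa1b, 0.19 for Dnajb1, 0.48 for Hsp90aa1, 0.50 for Hspa8 and 0.27 for Dnajb2. The FP cell with Hspa1a on had 1047532 counts, within the range of the others. CV cells with Hspa1a on had a median of 1862994 counts and 9.23% mitochondrial counts, and those with it off had 330276 counts and 17.1%. Among cells with at least 1000000 counts, Hspa1a was on in 1 of the 13 FP cells (7.69%, 0.195 to 36%) and in 7 of the 14 CV cells (50%, 23 to 77%). In the same cells Dnajb1 was on in 5 of the 13 FP (38.5%, 13.9 to 68.4%) and 2 of 14 CV cells (14.3%, 1.78 to 42.8%). With each cell thinned to 71770 counts (0 FP and 6 CV cells were shallower and left out), the shares with Hspa1a on were 4.76% and 38.5% and those with Dnajb1 on 23.8% and 7.69%. Both orders were thus as in all kept cells. Thinning matched the total count and not the share of mitochondrial counts or the genes detected. None of the 6 members was on in 3 FP and 7 CV kept cells, and these had at most 477338 and 407215 counts.

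**Figure D4:**
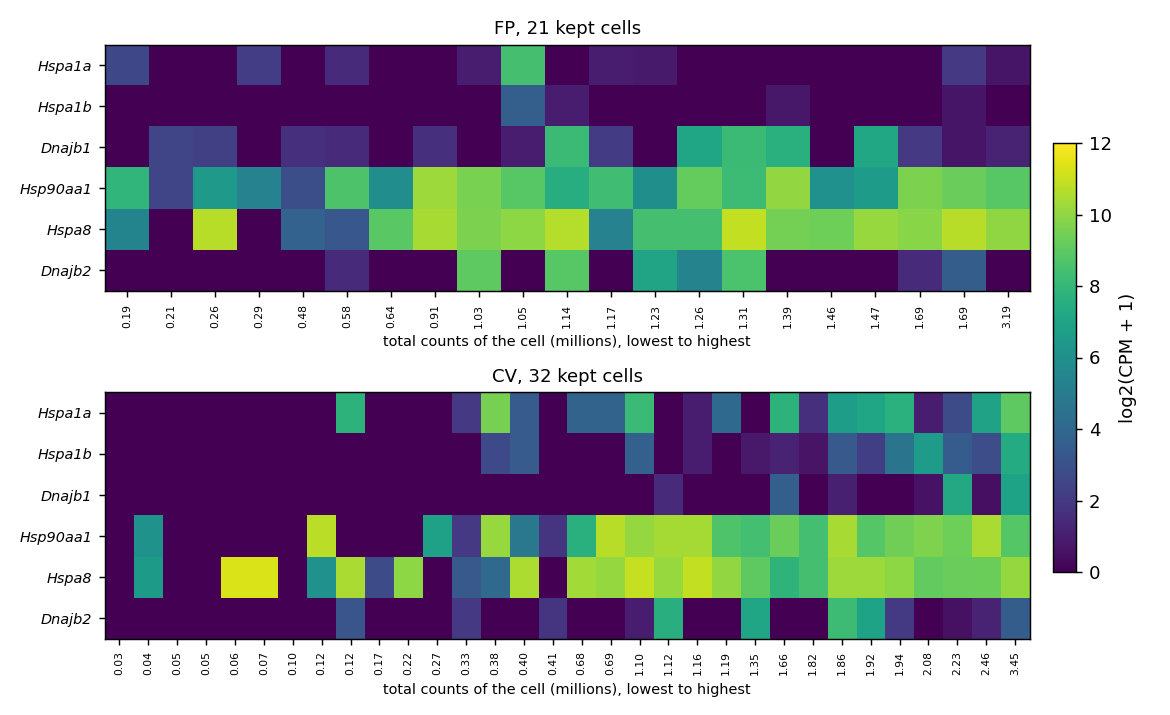
Kept cells of each library in order of total count, with the CPM of each member as colour on a log2(CPM + 1) scale. The cells with Hspa1a on in CV and with Dnajb1 on in FP lie mostly among those with at least 1000000 counts, and Hsp90aa1 and Hspa8 are low or at 0 in many of the shallowest CV cells.

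The barcodes that failed the Gnat3 limit were described for comparison. In the 8 such FP barcodes with more than 500 genes, keratinocyte genes had a summed median of 93598 CPM per barcode. There Hspa1a was at 175 CPM (168 to 182) and on in 2 barcodes, at 1119 and 1042 CPM, and Dnajb1 was at 275 CPM (266 to 284) and on in 3, at 461, 443 and 343 CPM. Both were higher than in the kept FP cells (16.6 and 61.3 CPM), while Hspa8 at 544 CPM and Hsp90aa1 at 163 CPM were lower than the kept cells' 906 and 447 CPM. The barcode at 1119 CPM had Hspa8 at 3.26 CPM and Hsp90aa1 at 0. In the 24 CV barcodes under the limit, where mitochondrial counts had a median of 91.5%, Hspa1a was at 0.53 CPM and Dnajb1 at 0.265 CPM, with neither on in any barcode. Hspa8 was at 676 CPM there, but 1 barcode of 4088415 counts and 14.6% mitochondrial counts held 4234 of its 5102 counts, and the median barcode was at 6.13 CPM with 5 of 24 on. The 5 CV barcodes with 500 genes or fewer held 0 counts of the 6 members in 491543 counts. Keratinocyte markers in the kept FP cells were 534 CPM at most, and the FP cell with Hspa1a on had 159 CPM of them.

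Among the other chaperone genes, the counts past 2-fold can be read against 17% of all genes higher in FP and 21% higher in CV. Of 12 measured heat shock response targets (13 listed, Cryab at 0 counts), 1 was at least 2-fold higher in FP, 2 were higher in CV and 9 were within 2-fold, with a median log2 of -0.30. Ahsa1, which activates the Hsp90 ATPase, was at 64.4 CPM in FP against 191 CPM in CV, and Chordc1, an Hsp90 co-chaperone, at 16.3 and 50.4 CPM. Hsph1, a nucleotide exchange factor of Hsp70, was at 66.8 and 125 CPM, and Bag3, which links Hsp70 to autophagy, at 202 and 114 CPM. The member higher in FP was the small heat shock protein Hspb8, chosen for mention after its values were seen, at 28.1 CPM in FP against 0.135 CPM in CV. It was at 135 CPM in FP without the Gnat3 limit, a setting that brings in the barcodes rich in keratinocyte genes.

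Of 11 constitutive cytosolic chaperones and co-chaperones, 0 were higher in FP, 2 were higher in CV and 9 were within 2-fold (median -0.17), where all genes give 17% and 21%. Hspa14, a ribosome-associated Hsp70 relative, was at 8.35 and 66.7 CPM, and Stub1, the ubiquitin ligase CHIP that acts on Hsp70 clients, at 105 and 245 CPM. Stub1 was no longer 2-fold apart without the Gnat3 limit (-0.89). Dnajc7 was at 99.3 and 59.2 CPM, and Ptges3, the Hsp90 co-chaperone p23, at 185 and 276 CPM. Of 4 heat shock factors and regulators, Hsf1 alone differed 2-fold (median -0.15). This gene for the master regulator of the response was at 13.3 CPM in FP against 109 CPM in CV, on in 2 and 8 cells. Hspa1a was also on in 5 of the 8 CV cells and in 0 of the 2 FP cells. In CV, Hspa1a was on in 9 of 32 cells, mostly deeper ones, and the part of depth in this overlap was not tested. Hsf1 kept 2-fold without the highest cell of each library, at 10.8 and 81.0 CPM. Hspbp1, an Hsp70 nucleotide exchange factor, was at 139 and 82.8 CPM, and Hsbp1, which binds HSF1, at 262 and 168 CPM.

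Of 10 endoplasmic reticulum chaperones, 2 were higher in FP, 2 higher in CV and 6 within 2-fold (median 0.16). Without the Gnat3 limit the counts were 1 higher in FP and 5 higher in CV, with a median of -0.82. In that setting 16.79% of 10924 genes were higher in FP and 19.02% higher in CV, with a median of -0.05. The setting adds 8 FP barcodes with a median of 93598 CPM of keratinocyte genes. It also adds 24 CV barcodes with a median of 91.5% mitochondrial counts. The part of these added barcodes in the change was not tested. Dnajb11, an Hsp40 of the reticulum, was at 127 CPM in FP against 42 CPM in CV, and Dnajc3, another J-domain protein, at 13.1 and 57.9 CPM. Hyou1, which exchanges nucleotide on the reticulum's Hsp70, was at 44.5 and 111 CPM. Dnajb9 was at 57 and 24.6 CPM, and its order turned without the Gnat3 limit to 38.3 and 106 CPM. Of 8 mitochondrial chaperones and proteases, 2 were higher in FP, 1 was higher in CV and 5 were within 2-fold (median 0.05). Clpp was at 112 and 46.7 CPM, Lonp1 at 25.9 and 62.3 CPM and Hspe1 at 272 and 162 CPM. Without the highest cell of each gene and library, 0 of 7 measured mitochondrial genes differed 2-fold, where all genes gave 16.8% higher in FP and 24.4% higher in CV. The difference of Hspd1 (113 and 105 CPM) changed sign there.

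The immediate early genes, which respond within minutes to many stimuli, had a higher sum in FP, while their single genes differed in direction. Of 14, 5 were at least 2-fold higher in FP, 2 higher in CV and 7 within 2-fold (all genes: 17% and 21%). Their median log2 difference was 0.75, and their pooled sum was 8927 CPM in FP against 4630 CPM in CV. Per cell the sum ran from 222 to 14196 CPM (median 8281) in FP. In CV it ran from 15.4 to 27942 CPM (median 1481). The pooled CV sum includes the cell of highest total count, which was at 19119 CPM. Egr1 was at 1729 and 545 CPM, Btg2 at 1176 and 354 CPM and Nr4a1 at 309 and 86.3 CPM. Atf3 went the other way, at 14.5 and 103 CPM, but was slightly higher in FP, at 10.2 and 5.98 CPM, without the highest cell of each library. Within a library the Spearman correlation of the immediate early sum with Hspa1a was 0.02 over 21 FP cells and -0.04 over 32 CV cells. Hspa1a was on in 1 and 9 of these cells, so the FP value ranks mostly stray counts. FP cells with Dnajb1 on had a median immediate early sum of 8722 CPM, and those with it off had 8216 CPM. The 2 CV cells with Dnajb1 on had 1434 and 19119 CPM, the second being the cell of highest total count. The 30 CV cells with it off had a median of 1427 CPM. FP had the higher immediate early sum, more Dnajb1 and less Hspa1a, and with 1 library per papilla a link between these was not tested.

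**Figure D5:**
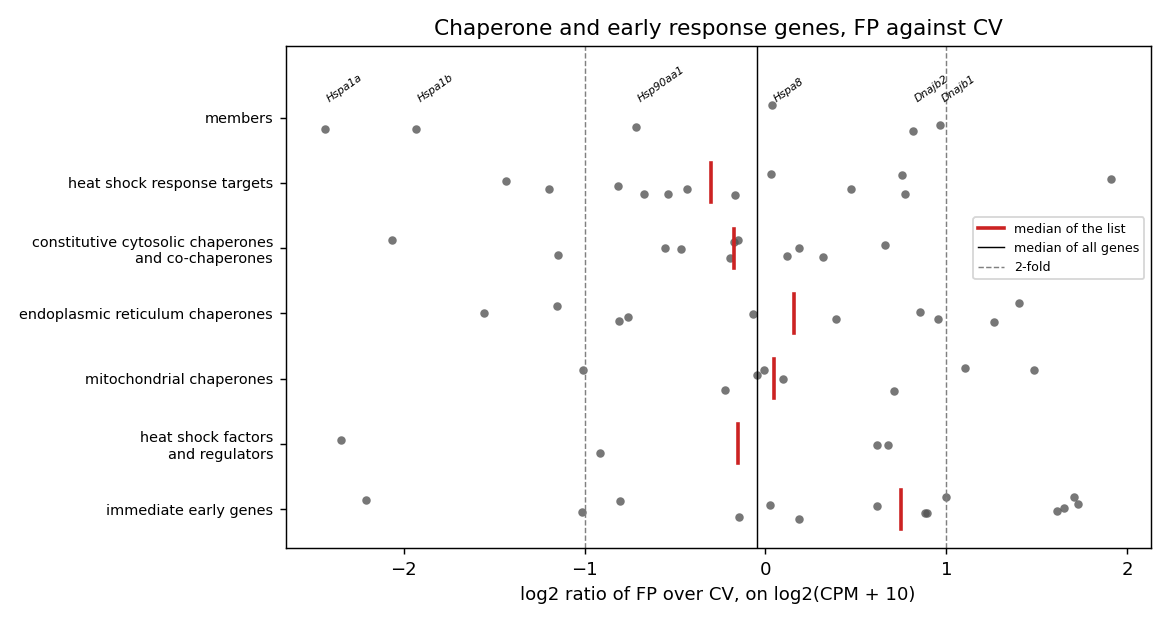
The log2 FP over CV difference on the log2(CPM + 10) scale for the 6 members and for every measured gene of 6 lists, with the list medians in red, the median of all genes as a black line and 2-fold as dashed lines. The chaperone lists scatter on both sides with medians from -0.30 to 0.16, and the immediate early genes have a median of 0.75.

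Genes most like a member over the 53 kept cells were named for the members on in at least 10 cells, among 1941 genes detected widely enough. For Hspa1a they were Fbxo2 (Spearman 0.65; 0.46 in FP and 0.70 in CV), Hnrnpdl (0.57; 0.33 and 0.59) and Atp8a1 (0.57; 0.65 and 0.53), beside a median of 0.23 over all 1941. For Hsp90aa1 they were Pbrm1 (0.76; 0.39 and 0.87), Suco (0.76; 0.74 and 0.75) and Atp8a1 (0.71; 0.64 and 0.71), beside a median of 0.40. For Hspa8, Arf3 (0.59; 0.76 and 0.50) and Rpl32 (0.57; 0.21 and 0.76) were among them, beside a median of 0.23. All cells of a library share its preparation and differ in depth, and these values are the highest of many, so they describe likeness only. Hspa1a was on in 1 FP cell, so its FP values rank mostly stray counts.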

How the data were processed

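Single cells were captured on the BD Rhapsody system and amplified by TAS-Seq, per the series design. The values deposited by the authors are raw counts of each gene in each barcode. Cutadapt 2.10, Bowtie2 2.3.4.1, Seurat 2.3.4 and the mouse build mm10 are listed, per the submitters' processing notes. Per the series design, DropletUtils and distribution-based error correction were also used. The sources used here do not give whether molecular identifiers were collapsed or how reads shared by Hspa1a and Hspa1b were counted. The authors' filter on Gnat3 was read as a natural logarithm, and a gene missing from one table was taken as 0 there. No mitochondrial limit was applied and no doublets were called.

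Kept cells were summed per library and scaled to 1000000 counts (CPM). Differences are log2((FP + 10) / (CV + 10)) of CPM, which understates low genes, over genes that reached 10 CPM in at least 1 library, with a fold of 2. Genes named in a list were the up to 4 with the largest absolute difference among those at 50 CPM or more. Intervals were computed with scipy 1.17.1, and figures drawn with matplotlib 3.10.9 in Python 3.11.15. Only the ratio intervals were tried on simulated data. Those were Poisson counts, the spread the intervals assume, without PCR copies or counts gathered in single cells. The trial therefore checks the computation and not the width of the intervals for these data. Groups came from the tissue label. For members on in at least 10 cells, the genes of highest Spearman correlation over the kept cells were named, of which 1 is not reported here. With 1 library per group there was no test. The members and lists were chosen with earlier results of these data known. Alternatives leaving out adjoining barcode numbers or the top-count cell, dividing by length, or keeping only cells with at least 1000000 counts were chosen after seeing the data.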

Additional observations from a re-analysis of the deposited data

How the results depend on the processing

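No paired analysis was possible because each papilla has 1 library. Hspa1a and Hsp90aa1 were on the CV side and Dnajb1 on the FP side under all 14 alternatives. Hspa8 was on the FP side under 8 and on the CV side under 6, and the constitutive group on the FP side under 12 of 16 and on the CV side under 4. For the inducible group (log2 FP over CV -1.18) the value turned to 0.45 without the Gnat3 limit, 0.10 by the median cell and 0.081 without the 10% of cells of highest total. It was -1.05 per kilobase, -0.81 with Hsp90aa1 counted as inducible, -1.09 in cells with at least 1000000 counts, -0.48 by the mean cell, -1.0 with median-of-ratios size factors, -1.27 with a pseudocount of 1, -0.52 thinned, -1.26 without adjoining barcodes, -0.67 without the top-count cells and -0.69 without the highest cells by CPM. The median FP over CV ratio behind those factors was -0.20 (log2) over 15844 genes, and with the pseudocount low genes shift by less.

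The constitutive group (0.09) was -0.22 with Hsp90aa1 counted in, 0.15 in deep cells, 0.027 by the mean, 0.16 by the median, 0.29 with size factors, -0.026 without the Gnat3 limit, 0.062 without adjoining barcodes, -0.15 without the highest totals, 0.12 without the top-count cells and -0.026 without the highest cells by CPM.

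The inducible to constitutive balance in CV (-2.22) was -2.39 per kilobase, -3.06 with Hsp90aa1 as constitutive and 0.0077 with it as inducible, where it turned. It was -2.15 in deep cells, -2.89 by the mean, -5.65 by the median, -2.45 without the Gnat3 limit, -2.27 with a pseudocount of 1, -2.59 thinned, -2.17 without adjoining barcodes, -3.16 without the highest totals, -2.91 without the top-count cell and -2.95 without the highest cell by CPM. In FP (-3.49) it was -4.03 and -0.90 with Hsp90aa1 as constitutive or inducible, -3.38 in deep cells, -3.40 by the mean, -5.71 by the median, -1.97 without the Gnat3 limit, -3.63 with a pseudocount of 1, -3.17 thinned, -2.94 without the highest totals, -3.71 without the top-count cell and -3.61 without the highest cell by CPM.

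Genes past 2-fold numbered 1854 higher in FP and 2297 higher in CV, of 10918 genes (17% and 21%). They numbered 855 and 862 of 5028 genes at a minimum of 50 CPM (17% and 17.1%). By the median cell they numbered 1067 and 171 of 1913 genes (55.8% and 8.94%). By the mean cell they numbered 2634 and 2011 of 10313 genes (25.5% and 19.5%). The settings thus compared different numbers of genes, and the cause of the shifts in these shares was not tested. Few cells, 1 library per papilla and counts that may hold PCR copies limit all values, and a share of 0 of 21 FP cells allows up to 16.1%.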
